A study of Bostrychia moritziana with 3 samples.

Results

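The comparison described here set the male gametophyte of the red alga Bostrychia moritziana against its tetrasporophyte, transcript by transcript. Its members were the transcripts that reached at least 1 RPKM (reads per kilobase and per 1000000 mapped reads) in either library, which 20950 of the 36534 transcripts in any of the study's listings did. The 2 libraries were among 3 in the series, the other being from the female gametophyte. Male and female gametophytes were collected while they formed spermatangial clusters and carpogonial branches, and tetrasporophytes once they bore mature sporangia. All came from unialgal cultures of strain 2746 kept at 1 temperature and day length. Each life stage had 1 library, and whether a library pooled several plants is not stated. No spread between plants or cultures could be estimated, no p-value was computed, and every difference below is between these libraries.

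In most red algae of this order the life cycle has 3 phases. Haploid male plants form spermatia, which lack flagella and are released from spermatangia, and haploid female plants form carpogonia. After fertilization a diploid carposporophyte grows on the female and releases carpospores, which grow into free-living diploid tetrasporophytes. Meiosis takes place in the tetrasporangia, and the tetraspores grow into male and female gametophytes. The comparison of a male gametophyte with a tetrasporophyte is therefore one of haploid with diploid plants and, at the same time, of plants forming male gametes with plants forming meiotic spores. Ploidy, reproductive state and culture cannot be told apart with these libraries. The amount of reproductive tissue in each sample is unknown, and in whole plants more cells of a type and more RNA per cell cannot be told apart either.

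Transcripts are identified only by ISGT and an assembly number, with no gene name, sequence or function beside it in the files. The 2 transcripts named in each direction were the one with the largest difference in RPKM and the one with the largest ratio among transcripts at 1 RPKM or more in both libraries.

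A minority of transcripts separated the 2 life stages. On the scale of RPKM plus 1, 1576 transcripts (7.52%) exceeded the tetrasporophyte by 4-fold or more in the male, and 1018 (4.86%) exceeded the male by as much in the tetrasporophyte. These are called male-higher and tetrasporophyte-higher below. The other 18356 transcripts (87.6%) stood less than 4-fold apart, and 13580 (64.8%) less than 2-fold apart. Members below 3 RPKM in both libraries cannot reach 4-fold on this scale, so these shares depend on the value added. With no value added and levels below 0.3 RPKM raised to 0.3 RPKM, 3193 transcripts were male-higher and 1760 tetrasporophyte-higher. The median log2 ratio of male to tetrasporophyte was 0.04, and the middle 50% of transcripts lay between -0.58 and 0.81. The upper tail was longer than the lower one, with the 95th percentile at 2.48 and the 5th at -1.96. Scaling by the median of ratios lowered the median log2 ratio by 0.13 and gave 1467 male-higher and 1096 tetrasporophyte-higher transcripts.

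The filter lay within a dense range of values. The higher of both values was less than 0.1 RPKM above the filter for 546 members, and at most 0.1 RPKM below it for 669 transcripts that stayed out. Of the members, 15363 reached 1 RPKM in both libraries, 3573 only in the male and 2014 only in the tetrasporophyte. A total of 800 members were missing from the male listing and were read as 0.3 RPKM there, the most that the listing rule allows. None was missing from the tetrasporophyte listing. The members held 99.1% of the summed RPKM in each library, so the transcripts left out carried little of the RNA.

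**Figure D1:**
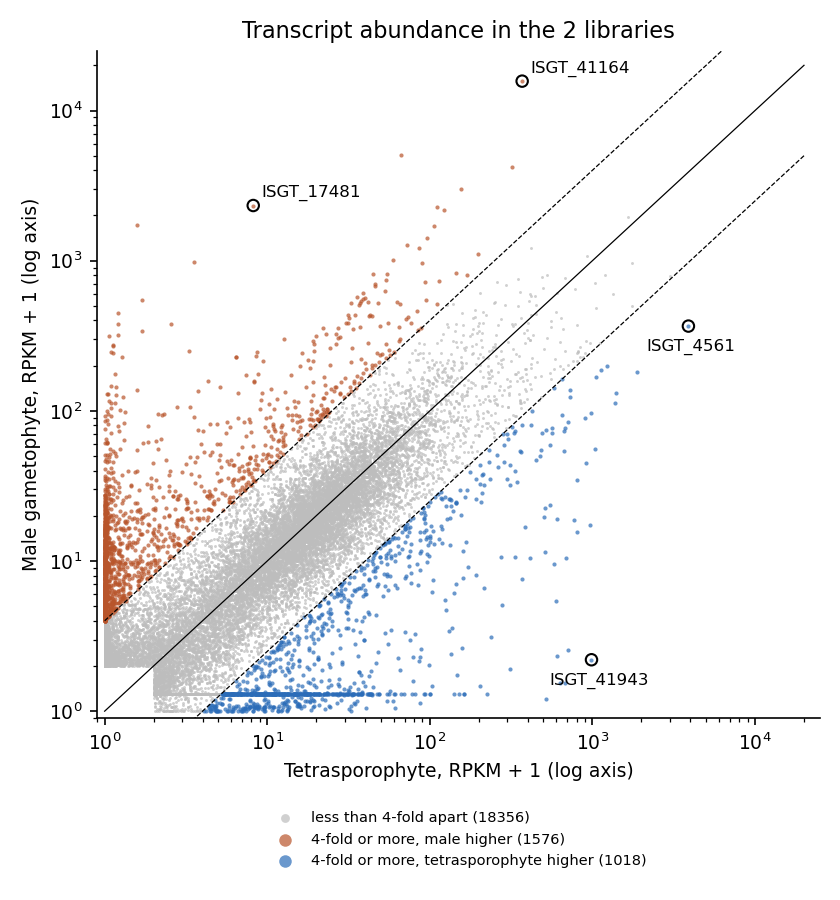
RPKM plus 1 of each of 20950 transcripts in the tetrasporophyte (x axis) and the male gametophyte (y axis), both on log axes, with the line of equal values and dashed lines at 4-fold. The 1576 orange points are higher in the male and the 1018 blue points higher in the tetrasporophyte; the 4 named transcripts are circled, and the blue row near the bottom is that of transcripts missing from the male listing and read as 0.3 RPKM.

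The transcript with the largest difference in RPKM was ISGT_41164. Its level was 15688 RPKM in the male, against 369 RPKM in the tetrasporophyte, with the female at 822 RPKM. It was thus highest in the male and far from absent in the other libraries. It was the most abundant transcript of the male and ranked 130 in the tetrasporophyte. Its log2 ratio was 5.41. The difference was 15319 RPKM, and the transcript made up 3.12% of the summed male RPKM against 0.0757% of the tetrasporophyte's.

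The largest ratio on the male side among transcripts at 1 RPKM or more in both libraries was that of ISGT_17481. The male value was 2329 RPKM, the tetrasporophyte value 7.20 RPKM and the female value 20.2 RPKM, so that the male stood far above both other libraries. This transcript held rank 5 in the male and rank 11280 in the tetrasporophyte. The log2 ratio was 8.15, or 323-fold as a plain ratio of RPKM.

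On the tetrasporophyte side, ISGT_4561 had the largest difference. It was the most abundant tetrasporophyte transcript at 3891 RPKM. The male value was 366 RPKM and the female value 1125 RPKM, so that it was abundant in all 3 libraries. In the male it still ranked 115, and its log2 ratio of male to tetrasporophyte was -3.41.

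The largest tetrasporophyte-side ratio among transcripts at 1 RPKM or more in both libraries was that of ISGT_41943. The tetrasporophyte value was 986 RPKM, the male value 1.20 RPKM and the female value 320 RPKM, so that it was low in the male only. It ranked 18 in the tetrasporophyte and 18066 in the male. The log2 ratio was -8.81, or 821-fold as a plain ratio.

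The excess of male-higher transcripts ran through the fold thresholds. These are nested, so each counts a part of the transcripts past the lower ones. At 4-fold the excess depended on assembly numbers 14000 to 24999. Male-higher and tetrasporophyte-higher counts were 525 and 148 from 14000 to 21999, and 305 and 3 from 22000 to 24999. The other numbers together held more tetrasporophyte-higher than male-higher transcripts. Over all members, the counts at 2-fold were 4431 in the male and 2939 in the tetrasporophyte. They were 710 and 465 at 8-fold, 260 and 190 at 16-fold, and 87 and 69 at 32-fold. At 64-fold they were 41 and 23, and at 256-fold 8 and 6. The male count was 1.26 to 1.89 times the tetrasporophyte count at the thresholds from 2-fold to 256-fold.

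**Figure D2:**
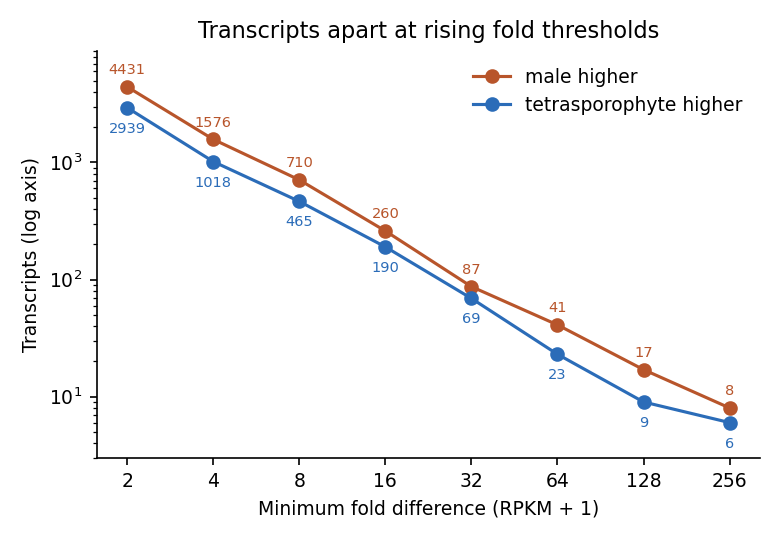
Number of transcripts (log axis) at least as far apart as the fold on the x axis, on the scale of RPKM plus 1, for the male gametophyte (orange) and the tetrasporophyte (blue). The male count is above the tetrasporophyte count at each threshold, from 4431 against 2939 at 2-fold to 8 against 6 at 256-fold.

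The size of this excess changed with abundance. Where the higher value lay between 1 and 10 RPKM, 696 of 9606 transcripts (7.25%) were male-higher and 309 (3.22%) tetrasporophyte-higher. Transcripts below 3 RPKM cannot reach 4-fold in this class, whichever library they favour. Those missing from the male listing, read as 0.3 RPKM, needed a higher level still. With missing values read as 0 RPKM, the tetrasporophyte-higher count rose from 1018 to 1092. Between 10 and 100 RPKM the counts were closer, 693 (6.73%) and 570 (5.53%) of 10301. Between 100 and 1000 RPKM they were 173 (17.1%) and 131 (13.0%) of 1010. Of the 33 transcripts at 1000 RPKM or more in either library, 14 were male-higher, 8 were tetrasporophyte-higher and the rest were less than 4-fold apart. A difference itself raises the higher value, so the transcripts were also classed by the mean of both levels on the log2(RPKM + 1) scale. The shares were then 13.8% male-higher and 8.08% tetrasporophyte-higher at 1 to 10 RPKM, 3.37% and 2.86% at 10 to 100 RPKM, and 11.3% and 9.21% of 608 transcripts at 100 RPKM or more. By mean level, the middle class thus held the smallest shares apart of these classes. On this scale a mean below 1 RPKM cannot go with a 4-fold difference. The lowest class, of 2662 members, thus held no transcript of either group by definition. Its median log2 ratio was 1.01, toward the male.

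Among transcripts well expressed in both plants, the male excess was smaller than over all members. Of the 8210 transcripts at 10 RPKM or more in both libraries, 6706 (81.7%) were less than 2-fold apart, with a median log2 ratio of -0.03. In this set 194 were male-higher and 158 tetrasporophyte-higher. At 100 RPKM or more in both there were 354 transcripts, of which 238 were less than 2-fold apart. Of these 354, 11 were male-higher and 11 tetrasporophyte-higher.

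The transcripts apart carried much of the RNA. Of the summed male RPKM, 23.6% fell to the male-higher group, which took 1.81% of the tetrasporophyte's. The tetrasporophyte-higher group took 15.9% of the summed tetrasporophyte RPKM and 1.47% of the male's. The choice of the groups fixes the direction of these shares. Both rested on few transcripts: 37 of the 1576 made up 50% of the male-higher group's RPKM in the male, and 49 of the 1018 made up 50% of the other group's in the tetrasporophyte. ISGT_41164 alone was 13.2% of the first, and ISGT_4561 was 5.02% of the second.

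The most abundant transcripts of the libraries overlapped in part. The 10 most abundant had 1 in common, the 100 most abundant 21, and the 1000 most abundant 537, counts that rise with the length of the lists by themselves. The male's 100 most abundant held 19.0% of its summed RPKM and had a median rank of 409.5 in the tetrasporophyte, with the lowest at rank 18523. The tetrasporophyte's 100 held 16.5% and had a median rank of 307.5 in the male, with the lowest at rank 20704. Further down, the libraries were spread alike: 1289 transcripts made up 50% of the summed RPKM in the male and 1385 in the tetrasporophyte. Across all 20950 members, the Spearman correlation was 0.75 and the Pearson correlation of log2(RPKM + 1) was 0.73, both over transcripts of the same pair of libraries and with no p-value.

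The transcripts apart were of 2 kinds, those nearly absent from the lower library and those reduced there. In the male-higher group, 953 of 1576 (60.5%) were at most 0.3 RPKM in the tetrasporophyte, of which 419 were listed at 0. In the tetrasporophyte-higher group, 502 of 1018 (49.3%) were at most 0.3 RPKM in the male, 330 of them by being missing from the male listing. Zeros cannot be compared between the libraries, since the value of a missing transcript is unknown. Reading missing values as 0.3 RPKM also keeps some nearly absent transcripts out of the tetrasporophyte-higher group, which held 1092 with missing values read as 0 RPKM. At the other end, 194 male-higher transcripts (12.3%) kept at least 10 RPKM in the tetrasporophyte, and 158 tetrasporophyte-higher ones (15.5%) kept that level in the male.

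The nearly absent transcripts were mostly low also where they were higher. The median male level of the 953 was 7.45 RPKM, and the median tetrasporophyte level of the 502 was 9.83 RPKM. They made up 12.3% and 11.0% of their groups' RPKM. The transcripts that kept at least 10 RPKM in the lower library were far more abundant where they were higher, with medians of 172 RPKM for the male-higher and 144 RPKM for the tetrasporophyte-higher ones. They made up 70.5% and 64.2% of their groups' RPKM. By summed RPKM, most of each group thus lay in transcripts that were at 10 RPKM or more in both life stages. The 4-fold limit demands a higher level the more a transcript keeps in the lower library. The selection therefore sets part of these contrasts in level and in share of RPKM.

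A few abundant transcripts were nearly absent from the other life stage. At 100 RPKM or more in the male and at most 0.3 RPKM in the tetrasporophyte there were 21 transcripts, with the highest at 444 RPKM. In the opposite direction there were 6, with the highest at 515 RPKM. As shares of the transcripts at 100 RPKM or more in each group, these were 11.2% of 187 and 4.32% of 139. At 10 RPKM or more the counts were 341 (38.8% of 880) and 246 (34.7% of 709). The limit of 0.3 RPKM leaves out the transcript with the largest log2 ratio on the male side, 10.1.

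**Figure D3:**
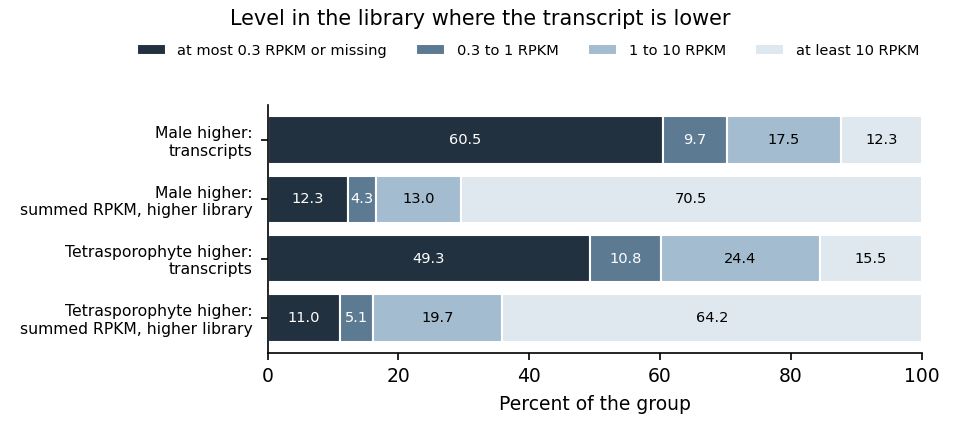
Level in the library where a transcript was lower, for the male-higher and the tetrasporophyte-higher groups, as a percent of the group's transcripts and of its summed RPKM in the library where it was higher. The darkest segments, at most 0.3 RPKM or missing, are 60.5% and 49.3% of the transcripts but 12.3% and 11.0% of the RPKM.

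The female gametophyte gave a further level for the same transcripts. Its values did not enter the ratios, but with the male's they decide which transcripts the male and female listings hold, and so which are read as 0.3 RPKM in both. All male-higher transcripts had a female value, while 330 tetrasporophyte-higher ones had none and were read as 0.3 RPKM. For the male-higher group the median was 11.9 RPKM in the male, with 0.11 RPKM for the tetrasporophyte and 0.79 RPKM for the female. For the tetrasporophyte-higher group it was 17.4 RPKM in the tetrasporophyte, with 0.33 RPKM for the male and 2.32 RPKM for the female. Over all members the female median was 6.53 RPKM. By their medians, both groups were thus lower in the female than the members as a whole.

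The female was at most 0.3 RPKM for 697 male-higher transcripts (44.2%), all of them measured. It was so for 378 tetrasporophyte-higher ones (37.1%), but 330 of the 378 were missing and only read as 0.3 RPKM. Among all members it was 4072 (19.4%), of which 800 were missing. It reached 10 RPKM for 369 male-higher (23.4%) and 328 tetrasporophyte-higher transcripts (32.2%), against 41.3% of all members. Of the 953 male-higher transcripts nearly absent from the tetrasporophyte, 616 (64.6%) were at most 0.3 RPKM in the female as well, against 81 of the other 623 (13.0%). The 953 were also lower in the male, with a median of 7.45 RPKM against 38.5 RPKM, and 654 of them lay outside numbers 22000 up to 38000. The matching share of all members nearly absent from the tetrasporophyte was not computed, so this may hold for low transcripts at large. The matching shares of the tetrasporophyte-higher group are set by the listing rule and were not compared, since a listed transcript below 0.3 RPKM in the male is at least at that level in the female.

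The abundant transcripts of both groups were mostly present in the female. The matching share of all members at 100 RPKM or more was not computed, so this may hold for abundant transcripts at large. The 187 male-higher transcripts at 100 RPKM or more had medians of 241 RPKM (male), 26.4 RPKM (tetrasporophyte) and 17.7 RPKM (female), and 130 of them (69.5%) reached 10 RPKM in the female. The 139 tetrasporophyte-higher ones had medians of 276 RPKM (tetrasporophyte), 24.9 RPKM (male) and 49.8 RPKM (female), and 116 (83.5%) reached 10 RPKM there. The female median lay below both others in the first set and between them in the second. Whether this placing differs from that of replicate libraries cannot be tested here.

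**Figure D4:**
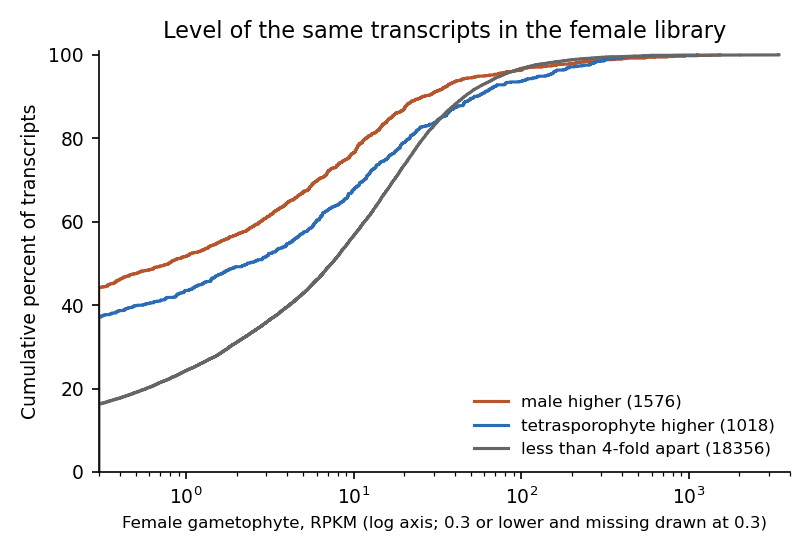
Cumulative percent of transcripts up to a given level in the female gametophyte (RPKM, log axis; values at most 0.3 RPKM or missing are drawn at 0.3), for the male-higher, the tetrasporophyte-higher and the remaining transcripts. The curves start at 44.2% for the male-higher and 37.1% for the tetrasporophyte-higher group, where 330 of 378 transcripts at the start are missing values, and lower for the transcripts less than 4-fold apart.

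The differences were unevenly placed along the assembly numbers, which serve only as labels and whose order is not explained in the sources used here. Below number 14000, with median levels of 12.7 RPKM (male) and 12.9 RPKM (tetrasporophyte), there were 606 male-higher and 542 tetrasporophyte-higher of 12126. These pooled blocks that leaned opposite ways, with 12 male-higher and 47 tetrasporophyte-higher in the block below 1000 and 34 and 92 in that from 3000, but 97 and 46 in that from 5000 and 61 and 17 in that from 13000. From 14000 up to 22000 there were 525 (18.3%) male-higher and 148 (5.17%) tetrasporophyte-higher of 2862. From 22000 up to 25000 there were 305 (25.6%) male-higher and 3 (0.252%) tetrasporophyte-higher of 1191. In that range 51.6% of the members were listed at 0 in the tetrasporophyte and 74.1% at 0 in the female, and the male median was 1.85 RPKM.

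Numbers from 25000 up to 29000 held 466 members, of which 4 were male-higher and 18 tetrasporophyte-higher. Their median log2 ratio of 1.03 was still toward the male, with medians of 1.17 RPKM (male) and 0.04 RPKM (tetrasporophyte). The direction turned from 29000 up to 38000, where 0 of 364 members were male-higher and 69 (19.0%) tetrasporophyte-higher, with a median log2 ratio of -0.97. Of these 364, 279 were missing from the male listing. Numbers from 38000 onward held 3941 members, mostly well expressed, with 136 (3.45%) male-higher and 238 (6.04%) tetrasporophyte-higher. The male-higher transcripts of this last range were abundant, with a median of 120 RPKM in the male, against 5.41 RPKM for those numbered from 22000 up to 25000. These ranges were set after the values were seen. Without numbers from 22000 up to 38000 the counts were 1267 male-higher and 928 tetrasporophyte-higher, and the nearly absent share was 51.6% of the first and 45.3% of the second. The female median was then 2.72 RPKM for the male-higher group and 3.96 RPKM for the other. The part of the assembly in the differences was not tested.

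**Figure D5:**
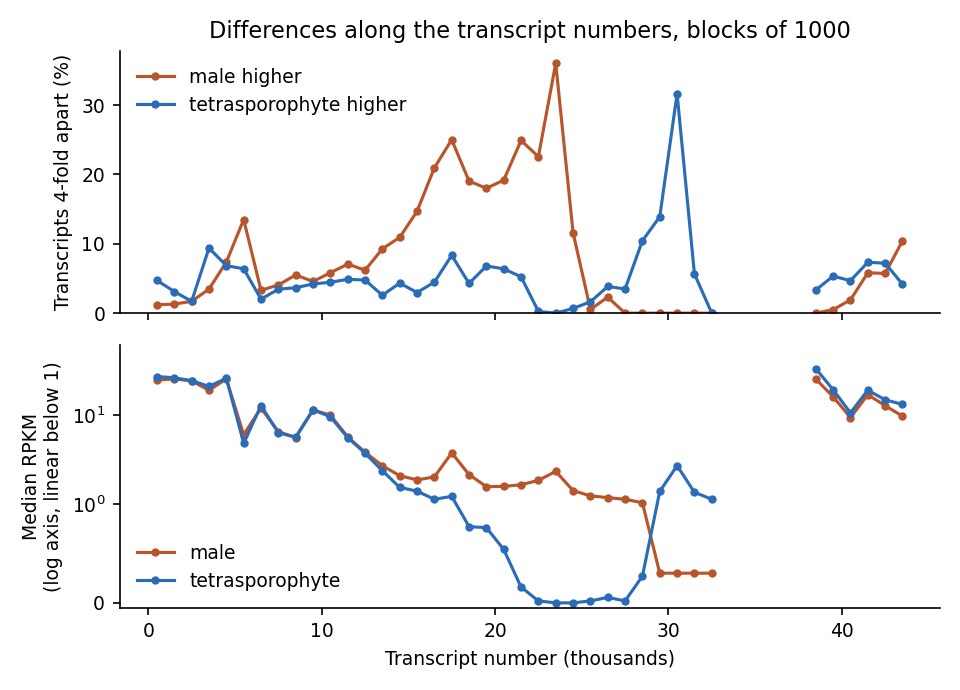
Upper panel, percent of members at least 4-fold apart in each block of 1000 transcript numbers; lower panel, median RPKM of the members in each library (log axis, linear below 1; missing read as 0.3 RPKM). Blocks with fewer than 20 members are left out. The male-higher share peaks at 36.0% in the block from 23000, where the tetrasporophyte median is 0 RPKM, and the tetrasporophyte-higher share at 31.6% in the block from 30000.

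Transcripts with neighbouring numbers were apart in the same direction more often than members at large. Neighbours mostly share a range of numbers, and the shares differed between ranges, so this may restate the ranges above. No comparison within ranges was made. Of the 1960 neighbours of male-higher transcripts that were members, 14.7% were male-higher, against 6.04% of all members in neighbouring pairs. Of the 1597 neighbours of tetrasporophyte-higher transcripts, 8.64% were tetrasporophyte-higher, against 4.92%. In 87 of the 300 neighbouring pairs with both transcripts apart, the pair was apart in opposite directions. The files do not say whether neighbouring numbers share sequence or reads, so neighbours cannot be taken as independent observations.

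The read totals of the libraries are unknown, and the low values give only their ratio. Over 4430 transcripts between 0.3 and 3 RPKM in both, 145 log2 ratios of male to tetrasporophyte, here plain ratios of RPKM, lay within 0.01 of -0.04, against 28 on average in windows beside it. If that ratio is the one of equal read numbers, 1.03 times as many reads came from the male library as from the tetrasporophyte library. Transcripts with 2 male reads to 1 tetrasporophyte read would then stand at 0.96, where 33 were found against 13.3 beside it, and those with 1 to 2 at -1.04, where 34 were found against 18. At 2 to 3 and 3 to 2 the windows held 36 against 24 and 33 against 27.3, and at 3 to 4 and 4 to 3 they held no more than those beside them. Without read totals, no counting interval can be given for any RPKM value here.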

How the data were processed

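Per the labels' protocols, TRI Reagent was used to extract total RNA and Illumina's standard protocols to prepare the libraries. The authors deposited 1 RPKM value per transcript and library, per the file headers, rounded to 2 decimals. How reads were assembled, aligned and counted is not given in the sources used here, nor are transcript lengths or depth, so reads could not be recovered.

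The listings were joined on transcript number. Each transcript listed for the male is at least 0.3 RPKM in the male or the female, those listed for the tetrasporophyte only are at least 0.3 RPKM there, and those missing from the tetrasporophyte listing are at most 0.3 RPKM in the male. A missing value was read as 0.3 RPKM, which gives the smallest fold. Log2 ratios used RPKM plus a pseudocount of 1 and understate the difference of low transcripts; 4-fold, a log2 ratio of 2, counted as apart. Plain ratios without the pseudocount are named as such. Shares of summed RPKM are over all listed transcripts of a library. The counts and the read ratio were tested on simulated data. The simulated fold differences were put only into well expressed transcripts without missing values. Calls of transcripts nearly absent or missing in 1 library were therefore not checked. The members, named transcripts, thresholds and alternatives were chosen with earlier results of these data known, and the ranges of transcript numbers after seeing the values. The software was Python 3.11.15 with pandas 2.3.3, numpy 2.4.6, scipy 1.17.1 and, for figures, matplotlib 3.10.9.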

Additional observations from a re-analysis of the deposited data

Results flagged for a closer look

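In the female library, 706 transcripts reached at least 1 RPKM while standing below 1 RPKM in both the male and the tetrasporophyte, and so had no part in the comparison. They drew attention as a signal in a library that the comparison does not use. Their median was 1.92 RPKM in the female, with 114 at 10 RPKM or more, 5 at 100 RPKM or more and a maximum of 812 RPKM. Of the summed female RPKM, 1.18% fell to them.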

How the results depend on the processing

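The male count was the larger in each setting tried, but none left out numbers from 14000 up to 22000. Male-higher and tetrasporophyte-higher counts there were 525 and 148, and from 22000 up to 25000 they were 305 and 3. Below 14000 they were closer, at 606 and 542. The tetrasporophyte count was the larger from 25000 up to 29000 (4 and 18), from 29000 up to 38000 (0 and 69) and from 38000 onward (136 and 238). From 25000 up to 29000 the median log2 ratio was still 1.03, toward the male. From 29000 up to 38000, 279 of the 364 members were missing from the male listing. With a pseudocount of 0.1 RPKM, 3510 transcripts were male-higher and 1621 tetrasporophyte-higher. With no pseudocount and values below 0.3 RPKM raised to it, the counts were 3193 and 1760. With at least 10 RPKM in either library they were 880 and 709, with only transcripts listed in both 1576 and 688, with a missing value read as 0 RPKM 1576 and 1092, and with each library's sum scaled to 1000000, where the pseudocount weighs less, 2319 and 1300. At 2-fold they were 4431 and 2939, and at 8-fold 710 and 465. The lower pseudocount and the raised floor admit low transcripts that a pseudocount of 1 keeps below 4-fold. Without transcript numbers from 22000 up to 38000, an alternative added after the data were seen, the median female level moved from 0.79 to 2.72 RPKM in the male-higher group and from 2.32 to 3.96 RPKM in the tetrasporophyte-higher group. Without the most abundant transcript of each library, the male-higher group held 21.2% of the summed male RPKM and the tetrasporophyte-higher group 15.3% of the tetrasporophyte's, and the Spearman correlation was 0.55 with at least 10 RPKM in either library. The 4 named transcripts kept their direction and stayed past 4-fold under the pseudocount and scaling alternatives. No paired analysis was possible because each life stage has 1 library and no test was made. Unknown read totals limit how low values can be read.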
